A study of Homo sapiens with 18 samples.

Results

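Knockdown with the siRNA labelled siCTBP1-AS #2 was compared with siControl in VCaP cells, a prostate cancer line from a vertebral metastasis that carries the TMPRSS2-ERG fusion and an amplified androgen receptor gene. The comparison used 4 of the 18 arrays of the series: siCTBP1-AS #2 with R1881 and with vehicle, and siControl with R1881 and with vehicle, with 1 array per siRNA and treatment. R1881 is a synthetic androgen and was given at 1 nM, with ethanol as vehicle. All VCaP cells were transfected 48 h before the hormone and kept for 3 days in medium with 5% charcoal-stripped serum, which is low in steroids. The 4 arrays were selected by their labels alone, and the members described below are the genes measured on them. Total RNA was hybridised to Affymetrix Human Gene 1.0 ST arrays, and each value is a log2 signal after RMA normalisation.

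Other knockdowns of the series served as comparison. VCaP cells of the same set received siPSF, against the RNA-binding protein PSF (gene SFPQ), with R1881 at 1 nM or vehicle. LNCaP cells, a line from a lymph node metastasis with a mutated androgen receptor, received siCTBP1-AS #2 with R1881 at 1 nM (set 2), or an siRNA labelled siCTBP1-AS without a number with R1881 at 10 nM (set 1), each with vehicle and siControl arrays of its own and 2.5% charcoal-stripped serum. The labels do not say how the #2 reagent differs from the other. LNCaP set 3 received siPSF or siControl, with R1881 at 10 nM or vehicle and 2.5% charcoal-stripped serum. It entered the pooled fit, and its effects are not reported here. The sets were scaled separately, so levels are compared within a set and only differences are set side by side between sets. Each siRNA and treatment had 1 array per set, so p-values measure the disagreement between the effects with R1881 and with vehicle. Real differences in effect between the treatments enter this spread. Whether separate cultures lie behind the arrays is not stated in the labels, so the rest of the spread may be technical. The number of arrays limits the precision.

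CTBP1-AS is a long noncoding RNA transcribed antisense to CTBP1, which encodes a transcriptional corepressor. It is known as an androgen-responsive transcript of prostate cancer cells that binds PSF, and PSF in turn recruits histone deacetylase complexes to target genes. Androgen receptor target genes such as KLK3 (prostate-specific antigen) rise with androgen in these lines.

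The knocked-down transcript itself was not analysed here, so the labels were not checked on the target. CTBP1 had log2 signals of 10.84 with R1881 and 10.97 with vehicle in siCTBP1-AS #2 cells, against 10.55 with R1881 and 10.93 with vehicle in siControl cells. The siRNA groups overlapped, and the mean effect (siCTBP1-AS #2 minus siControl, averaged over both treatments) was 0.16 ± 0.19 (SE, adjusted p = 0.734). CTBP1-DT, the divergent transcript of the CTBP1 promoter, had an effect of -0.41 ± 0.11 (SE, adjusted p = 0.109) and was named after its values were seen. SFPQ had an effect of 0.11 ± 0.10 (SE, adjusted p = 0.646) with siCTBP1-AS #2, against -1.44 with siPSF in the same line. The androgen receptor gene was not analysed here. The hormone label could be checked on KLK3, which had signals of 12.39 with R1881 against 10.16 with vehicle in siCTBP1-AS #2 cells, and 12.64 with R1881 against 10.89 with vehicle in siControl cells.

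In the fit, 13812 genes were tested and 249 were called at an adjusted p under 0.05, which is 1.80% of those tested. Of these, 117 rose (0.847% of the tested genes) and 132 fell (0.956%). Counts of called genes in the lists below stand against these shares, at which a short list holds few or no called genes. The spread behind these calls is the disagreement between the effect with R1881 and the effect with vehicle, pooled over all 4 sets and all knockdowns, so it assumes that VCaP varies as LNCaP does. Similar effects in both treatments among called genes are therefore no separate evidence. Effects of called genes lay between -1.76 and 2.98, and an absolute effect of 1 or more was reached by 40 genes that rose and 9 that fell. The siRNA groups did not overlap for 204 of the 249 called genes, against 26.5% of the tested genes. Called genes were chosen for their effects on these same arrays, which favours separate groups, so these shares cannot be compared. Where groups are said below not to overlap, this describes the values and adds no evidence. The median effect over the tested genes was -0.03. Each VCaP array carried weight in this count. It was 14 without the R1881 array of siCTBP1-AS #2, 21 without its vehicle array, 41 without the R1881 array of siControl, 14 without its vehicle array, and 153 without either siPSF array. A fit on the 6 VCaP arrays alone called 187 genes (1.35%), 128 of them shared with the 249, and a fit on the 4 compared arrays called 54, with 40 shared. Both of these smaller fits called 38 of the 249, of which 31 rose and 7 fell.

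**Figure D1:**
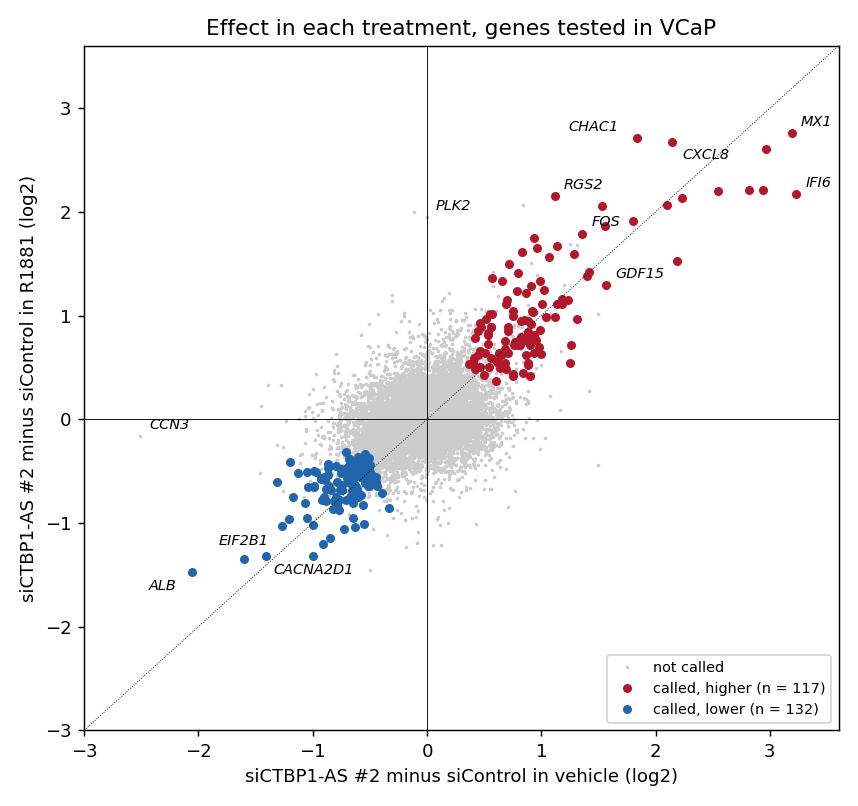
Each point is 1 of the 13812 tested genes, with its effect in vehicle (siCTBP1-AS #2 minus siControl, log2) across and its effect in R1881 up. The 117 genes called higher lie in the upper right and the 132 called lower in the lower left, near the dotted line of equal effects, while CCN3 and PLK2 lie away from it.

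Of the 15 genes with the highest effects, 10 were of the interferon-stimulated list, whose genes are switched on by type I interferon through a complex that contains IRF9. MX1, a dynamin-like GTPase that blocks viral replication, had signals of 8.23 with R1881 and 8.23 with vehicle in siCTBP1-AS #2 cells, against 5.47 with R1881 and 5.04 with vehicle in siControl cells. The log2 effect was 2.98 ± 0.15 (SE, adjusted p = 2.17e-05), a 7.87-fold rise. In bulk samples a change in the share of cells that express a gene and a change in RNA per cell cannot be told apart. IFIT1, which binds viral RNA that lacks cap methylation, had 8.77 with R1881 and 8.64 with vehicle in siCTBP1-AS #2 cells, against 6.16 with R1881 and 5.67 with vehicle in siControl cells. In neither gene did the groups overlap. IFI6, a mitochondrial and endoplasmic reticulum protein, reached 12.84 with R1881 and 12.88 with vehicle after siCTBP1-AS #2, against 10.67 with R1881 and 9.66 with vehicle after siControl. Its siControl level was higher with R1881 than with vehicle, while both siCTBP1-AS #2 arrays were at nearly the same level.

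The other interferon-stimulated genes among the 15 highest were IFITM1 (effect 2.58 ± 0.34), a membrane protein that blocks virus entry, IFI44L (2.51 ± 0.54), RSAD2 (2.38 ± 0.25), which encodes viperin, IFI44 (2.18 ± 0.37), the helicase DDX60 (2.08 ± 0.29), OAS1 (1.85 ± 0.37), which makes the activator of RNase L, and PLSCR1 (1.71 ± 0.35), all SE. IRF9, the DNA-binding part of the interferon complex, rose by 1.86 ± 0.24 (SE, adjusted p = 0.0068). Of the 35 tested genes of the interferon-stimulated list, 16 rose and none fell, and the list's median effect was 1.18, against -0.03 over all genes. In the fit on the 6 VCaP arrays 23 of the 35 were called. All 35 effects were above 0, from 0.06 for CMTR1 to 2.98 for MX1. ISG15, the ubiquitin-like modifier, had an effect of 0.84 and IFIT3 one of 1.18, and neither passed the test. Over its 39 measured members the median level of the list was 7.72 with R1881 and 7.51 with vehicle in siCTBP1-AS #2 cells, against 6.31 with R1881 and 6.10 with vehicle in siControl cells.

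**Figure D2:**
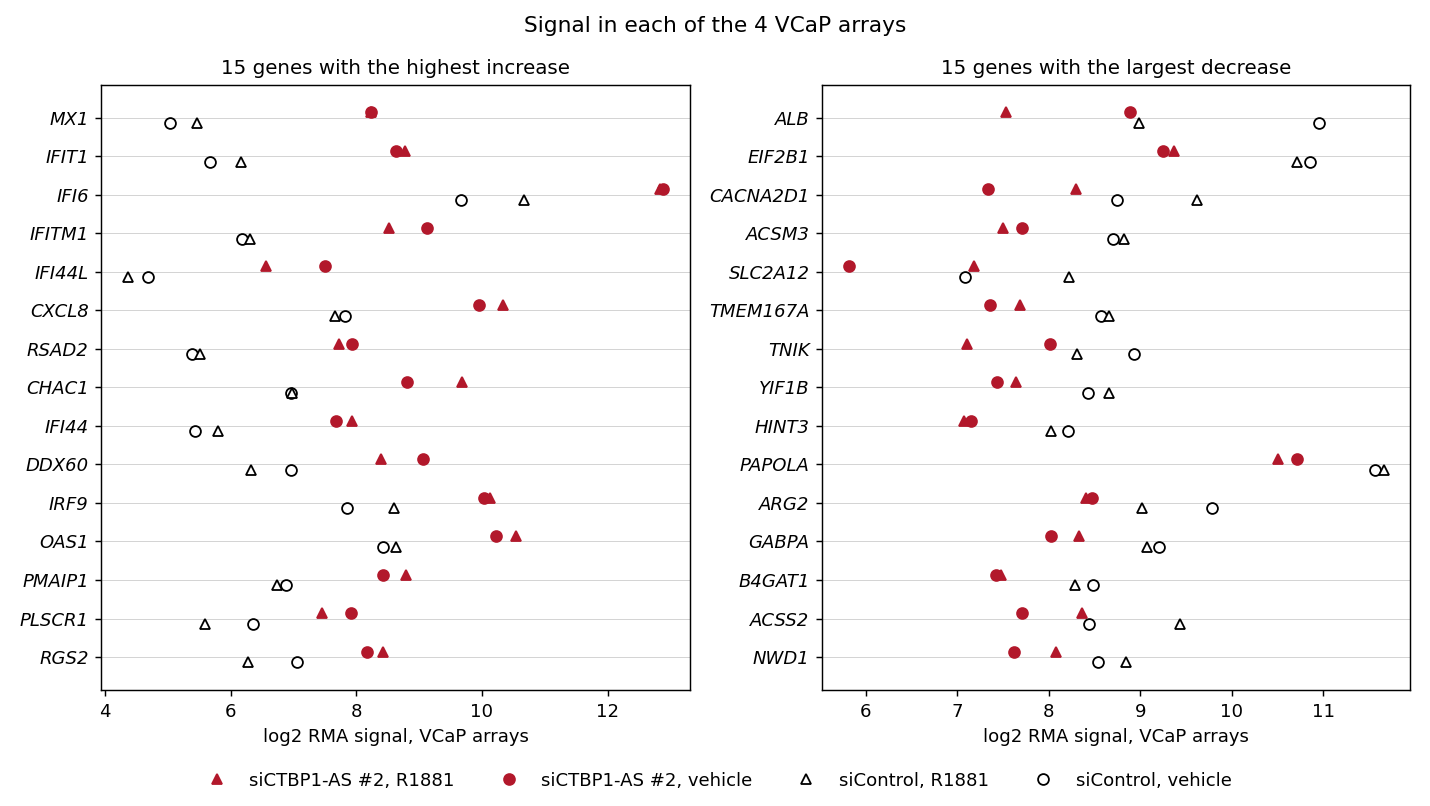
Log2 RMA signal in each of the 4 VCaP arrays for the 15 called genes with the highest effect (left) and the 15 with the lowest (right). Filled symbols are siCTBP1-AS #2, open symbols siControl, triangles R1881 and circles vehicle. The siRNA groups are separate for all of these genes except SLC2A12, whose siCTBP1-AS #2 signals were 7.19 with R1881 and 5.82 with vehicle, against 8.22 with R1881 and 7.09 with vehicle after siControl.

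The promoters of 3 of these genes are shown because each holds the core letters of the interferon-stimulated response element, the site bound by the IRF9 complex. The letters searched were GAAANNGAAA on both strands. Sequences are from RefSeq (GRCh38.p14), 250 bases before to 50 bases after the annotated start, in the direction of the gene, with matches in capitals. A match in capitals that reads TTTC first lies on the opposite strand.
MX1 (chr21:41420308-41420607, plus strand): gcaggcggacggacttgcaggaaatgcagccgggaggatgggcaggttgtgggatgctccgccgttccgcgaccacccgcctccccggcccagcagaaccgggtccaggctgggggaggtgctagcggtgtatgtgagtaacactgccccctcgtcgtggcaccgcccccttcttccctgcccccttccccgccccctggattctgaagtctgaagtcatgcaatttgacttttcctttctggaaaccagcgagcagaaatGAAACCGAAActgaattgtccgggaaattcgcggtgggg
IFIT1 (chr10:89392373-89392672, plus strand): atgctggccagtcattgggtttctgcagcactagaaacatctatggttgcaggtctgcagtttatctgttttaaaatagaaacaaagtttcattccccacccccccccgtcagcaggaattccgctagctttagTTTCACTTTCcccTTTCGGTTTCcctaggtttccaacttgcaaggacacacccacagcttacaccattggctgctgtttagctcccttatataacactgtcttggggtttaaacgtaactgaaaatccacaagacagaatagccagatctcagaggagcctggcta
IFI6 (chr1:27672143-27672442, minus strand): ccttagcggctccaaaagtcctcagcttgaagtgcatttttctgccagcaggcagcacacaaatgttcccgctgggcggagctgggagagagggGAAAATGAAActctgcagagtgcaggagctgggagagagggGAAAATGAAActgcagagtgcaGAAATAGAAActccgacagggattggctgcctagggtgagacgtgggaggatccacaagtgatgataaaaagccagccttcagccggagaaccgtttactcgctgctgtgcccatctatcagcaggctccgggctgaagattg
MX1 held 1 match, beginning 11 bases after the start, IFIT1 held 2 and IFI6 held 3. Among the called interferon-stimulated genes, 10 of the 15 with a promoter entry held a match (66.7%), and among those not called, 11 of 16 did (68.8%). The share was 2.7% over the tested genes and 3.7% over all 27305 promoters. It was 2.6% among the other genes that rose (2 of 77) and 1.8% among those that fell (2 of 114). A match describes the letters in this window and does not show that a factor was bound.

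Genes that act upstream of the interferon response were listed separately. In the list of RNA sensors and interferon signalling, 2 of 18 tested genes rose, IRF9 and IRF7 (0.72 ± 0.15, SE; adjusted p = 0.0604 on the 6 VCaP arrays), and the list's median was 0.24. RIGI, a sensor of double-stranded RNA ends, had an effect of 1.25 and IFIH1, which encodes MDA5, one of 0.29, neither called. PSMB9, an interferon-inducible subunit of the immunoproteasome, was the 1 gene called among 9 of antigen presentation, with an effect of 0.77 ± 0.11 (SE, adjusted p = 0.00938).

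The chemokine CXCL8, which attracts neutrophils, was the sixth highest gene. Its signals were 10.34 with R1881 and 9.96 with vehicle in siCTBP1-AS #2 cells, against 7.66 with R1881 and 7.82 with vehicle in siControl cells. The groups were well apart, and the effect was 2.41 ± 0.13 (SE, adjusted p = 2.17e-05). In its list of chemokines and NF-kB targets 3 of 13 rose: CXCL8, CXCL1 (0.68 ± 0.12) and TNFAIP3 (0.80 ± 0.16), the NF-kB inhibitor A20, both SE. In LNCaP the CXCL8 effect was 0.40 in set 2 and 2.17 in set 1, and the difference between VCaP and set 1 had an adjusted p of 0.608. With siPSF in VCaP the CXCL8 effect was 1.82, and siCTBP1-AS #2 minus siPSF was 0.58 ± 0.13 (SE, adjusted p = 0.0323). NFKBIA, which encodes another inhibitor of NF-kB, had an effect of 0.37 and was not called.

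Genes of the ATF4 response, which cells switch on when amino acids are short or the initiation factor eIF2 is phosphorylated, formed another group. CHAC1, which degrades glutathione, had signals of 9.69 with R1881 and 8.81 with vehicle in siCTBP1-AS #2 cells, against 6.98 with R1881 and 6.96 with vehicle in siControl cells. It rose by 2.28 ± 0.28 (SE, adjusted p = 0.0068). SLC7A11, the cystine transporter, had 10.87 with R1881 and 10.81 with vehicle after siCTBP1-AS #2, against 9.28 with R1881 and 9.52 with vehicle after siControl, and rose by 1.44 ± 0.25 (SE). Neither gene overlapped between the siRNAs.

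Of 27 tested genes in this list, 6 rose and none fell, with a median of 0.37. The other 4 were SESN2 (1.32 ± 0.26), which restrains mTORC1, CEBPB (1.12 ± 0.14), ATF3 (0.92 ± 0.13) and SLC3A2 (0.72 ± 0.14), the partner chain of SLC7A11, all SE. ASNS, which makes asparagine, had an effect of 0.88, DDIT3 (CHOP) 0.85 and ATF4 itself 0.19, without a call. In the list of the unfolded protein response, the chaperone programme of the endoplasmic reticulum, none of 23 genes was called and the median was -0.12. HSPA5, its main chaperone, stood at -0.07.

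EIF2B1 was the second lowest gene. It encodes the alpha subunit of eIF2B, the exchange factor that recharges eIF2 with GTP and that phosphorylated eIF2 inhibits. Its signals were 9.37 with R1881 and 9.25 with vehicle in siCTBP1-AS #2 cells, against 10.71 with R1881 and 10.85 with vehicle in siControl cells. The groups were more than 1 log2 unit apart, and EIF2B1 fell 2.78-fold, an effect of -1.47 ± 0.097 (SE, adjusted p = 0.000137). In LNCaP set 2 the same siRNA gave -0.41, in set 1 siCTBP1-AS gave 0.21, and siPSF in VCaP gave -0.15. The difference from set 2 was -1.07 ± 0.14 (SE, adjusted p = 0.00207).

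Several other genes of this step were looked up after the value of EIF2B1 was seen. The remaining subunits EIF2B2, EIF2B3, EIF2B4 and EIF2B5 had effects of -0.14, -0.18, -0.21 and -0.16, and none was called. Of the kinases that phosphorylate eIF2, EIF2AK4 (GCN2) stood at -0.33, EIF2AK3 (PERK) at -0.20 and EIF2AK1 at -0.14, again without a call. The kinase EIF2AK2 (PKR) was not among the genes looked up, so these kinases were covered only in part. PPP1R15A, which encodes the phosphatase subunit GADD34, rose by 0.98 ± 0.15 (SE, adjusted p = 0.0141).

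The promoter of CHAC1 is shown for the element bound by ATF4 with C/EBP factors, searched as TGATGNAA on both strands, with the match in capitals on the opposite strand (RefSeq, GRCh38.p14).
CHAC1 (chr15:40953221-40953520, plus strand): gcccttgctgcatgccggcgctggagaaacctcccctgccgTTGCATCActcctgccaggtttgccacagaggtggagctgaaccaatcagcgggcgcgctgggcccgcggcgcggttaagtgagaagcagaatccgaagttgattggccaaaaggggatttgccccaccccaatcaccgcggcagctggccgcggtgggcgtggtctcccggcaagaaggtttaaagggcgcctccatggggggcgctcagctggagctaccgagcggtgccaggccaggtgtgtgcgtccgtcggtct
The match began at position -209 from the start. A match was held by 2 of the 5 called genes of the list with a promoter entry, by 3 of 18 that were not called, and by 1.8% of the tested genes.

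PMAIP1 (NOXA), a BCL2-family protein that promotes apoptosis and is also a known ATF4 target, had 8.80 with R1881 and 8.43 with vehicle in siCTBP1-AS #2 cells, against 6.74 with R1881 and 6.89 with vehicle in siControl cells. It rose by 1.80 ± 0.24 (SE, adjusted p = 0.00878) and was the 1 gene called of 13 in the BCL2 family, whose median was 0.15. GDF15, a stress-induced cytokine, had 11.15 with R1881 and 11.76 with vehicle in siCTBP1-AS #2 cells, against 9.86 with R1881 and 10.19 with vehicle in siControl cells, and rose by 1.43 ± 0.14 (SE). In the list of damage response and death receptor genes, GDF15 and SESN2 were the 2 called of 18. Both are also induced by stress without DNA damage, and what lay behind their rise was not tested. CDKN1A, the p53 target p21, had an effect of 0.55 ± 0.12 (SE, adjusted p = 0.0518), MDM2 stood at -0.16 and the list's median was 0.10.

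In the list of oxidative stress and AKR1C genes 9 of 19 tested genes rose and none fell, with a median of 0.68, against 0.07 with siPSF in the same line. Metallothioneins are small proteins that bind zinc and copper, and MT1X had 12.01 with R1881 and 11.99 with vehicle in siCTBP1-AS #2 cells, against 10.84 with R1881 and 10.81 with vehicle in siControl cells. Its effect of 1.17 ± 0.13 (SE, adjusted p = 0.00428) was almost equal in both treatments. MT1G (1.05 ± 0.18), MT1F (0.99 ± 0.20) and MT1E (0.76 ± 0.11) rose too, all SE, while MT1H at 0.69 was not called; MT1E and MT1H were added after their values were seen. The metallothioneins are near-identical neighbours on chromosome 16, so their probes may share signal.

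NQO1 (1.09 ± 0.14), a quinone reductase, AKR1C1 (1.1 ± 0.18), an aldo-keto reductase that inactivates progesterone, TXNRD1 (0.68) and GCLM (0.67) are targets of the oxidative stress factor NRF2. These 4 genes rose. AKR1C3 (1.00) and HMOX1 (0.99) did not pass the test, and AKR1C2 stood at 0.04. SLC7A11 is also counted in this list. The difference between siCTBP1-AS #2 and siPSF, from which siControl drops out, was 0.96 ± 0.14 for NQO1 (SE, adjusted p = 0.00636), 0.97 ± 0.18 for AKR1C1 (SE, adjusted p = 0.0196) and 0.94 ± 0.18 for the glutathione peroxidase GPX2 (SE, adjusted p = 0.0185). For MT1X that difference was 0.18 ± 0.13 (SE, adjusted p = 0.522). AKR1C1 was higher still with the CTBP1-AS siRNAs in LNCaP. Its effect was 1.1 in VCaP, against 2.01 in set 2 (difference -0.91, adjusted p = 0.0488) and 3.04 in set 1 (difference -1.94, adjusted p = 0.00731), and the list median in LNCaP was 0.35 in set 2 and 0.20 in set 1.

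The promoter of MT1X is shown for the core of the metal response element, the site of the zinc sensor MTF1, searched as TGCNCNC on both strands, with matches in capitals (RefSeq, GRCh38.p14).
MT1X (chr16:56682220-56682519, plus strand): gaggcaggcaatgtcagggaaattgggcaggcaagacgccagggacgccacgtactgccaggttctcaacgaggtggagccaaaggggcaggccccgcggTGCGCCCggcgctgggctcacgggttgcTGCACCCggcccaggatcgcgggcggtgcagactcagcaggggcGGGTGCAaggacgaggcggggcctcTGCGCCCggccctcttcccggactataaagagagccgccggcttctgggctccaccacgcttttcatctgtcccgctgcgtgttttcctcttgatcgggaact
It held 4 matches. At least 4 were held by 4 of the 4 tested metallothioneins with a promoter entry and by 2.7% of the promoters searched. At least 1 was held by 63.3% of the tested genes, so a single match is common.

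Immediate early genes, the transcription factors that growth and stress signals switch on within minutes, rose for 8 of the 29 tested, with none lower and a list median of 0.35. FOS had 8.97 with R1881 and 8.13 with vehicle after siCTBP1-AS #2, against 7.19 with R1881 and 6.76 with vehicle after siControl, and rose by 1.57 ± 0.16 (SE, adjusted p = 0.00213). EGR1 had 9.86 with R1881 and 9.06 with vehicle after siCTBP1-AS #2, against 8.61 with R1881 and 8.04 with vehicle after siControl, and rose by 1.14 ± 0.11 (SE). Neither gene overlapped between the groups. JUN (1.01), FOSB (1.01), ATF3 (0.92), JUNB (0.91), DUSP1 (0.78) and JUND (0.57) complete the 8. The cytoskeletal targets of SRF in this list, ACTB (0.05), TAGLN (0.35) and VCL (-0.21), were not called.

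Further genes that rose were RGS2, an inhibitor of G-protein signalling (1.64 ± 0.26), ID1 (0.97 ± 0.20; adjusted p = 0.0649 on the 6 VCaP arrays) and ID3 (0.90 ± 0.12), BMP-responsive inhibitors of differentiation factors, and VEGFA (0.91 ± 0.16) and ADM (0.88 ± 0.13), a pair of vascular growth factors, all SE. ID1 and ID3 were the 2 called of 24 genes of TGF-beta and BMP signalling, and SMAD3 stood at -0.45 ± 0.20 (SE, adjusted p = 0.304). With siPSF in VCaP, against the same siControl arrays, the effects were 1.08 for ID1 and 0.97 for ID3. The direct difference between the knockdowns had an adjusted p of 0.81 for each. VEGFA and ADM were the 2 called of 26 in hypoxia and glycolysis, whose median was -0.04, while 0.847% of all tested genes rose. LDHA, at -0.11, and SLC2A1, at 0.07, were not called. The Notch ligand DLL4 (1.19 ± 0.12) and the stress gene GADD45B (1.04 ± 0.12), both SE and named after their values were seen, also rose. In the RNA interference list DICER1, which cuts small RNA precursors, was the 1 called of 13, at 0.53 ± 0.097 (SE, adjusted p = 0.0279), a call lost on the 6 VCaP arrays (adjusted p = 0.0768).

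**Figure D3:**
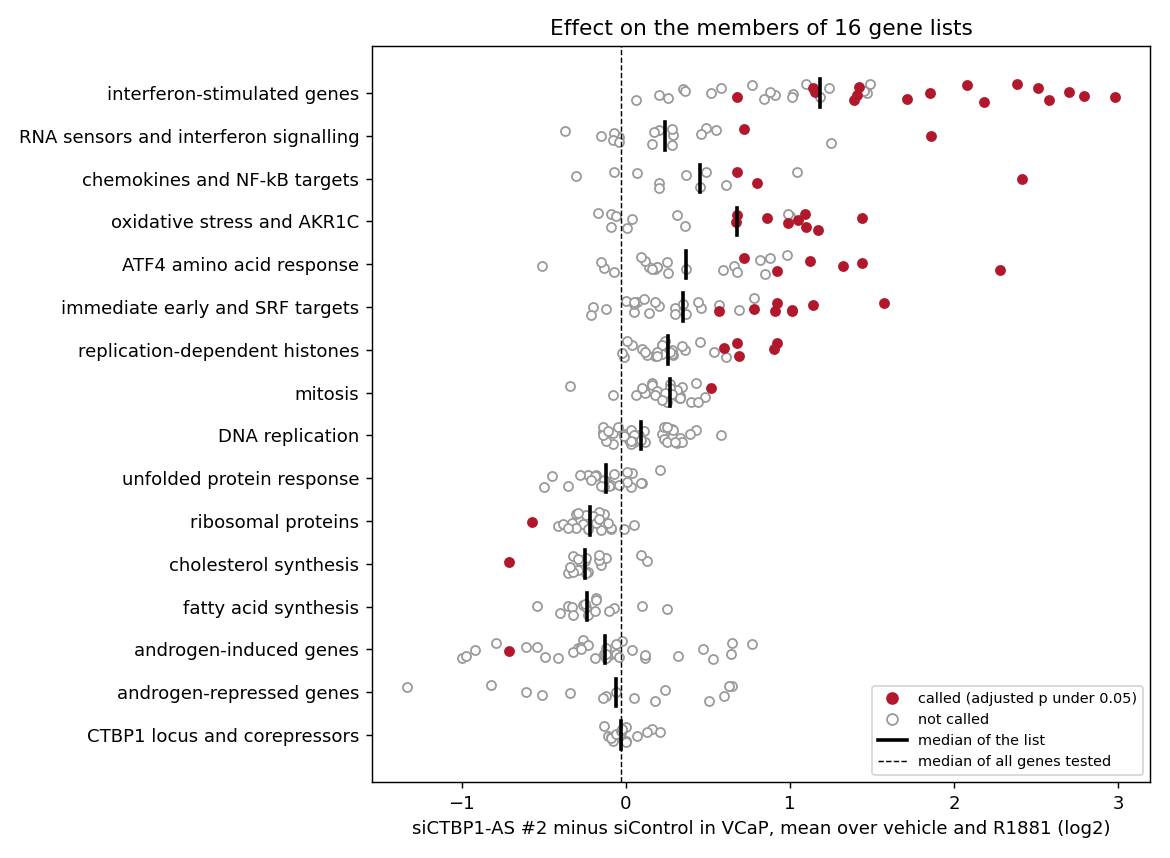
Each point is the effect on 1 tested gene (log2, mean over vehicle and R1881), arranged in 16 gene lists, with called genes filled and the list median as a black bar. The interferon-stimulated list has a median of 1.18 and the oxidative stress list 0.68, whereas the lists from the unfolded protein response down have medians between -0.25 and -0.03 and 3 filled points.

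The lowest gene was ALB, serum albumin. Its signals were 7.53 with R1881 and 8.89 with vehicle in siCTBP1-AS #2 cells, against 8.99 with R1881 and 10.95 with vehicle in siControl cells. The effect was -1.76 ± 0.16 (SE, adjusted p = 0.00135), and within each siRNA it was lower with R1881 than with vehicle. CACNA2D1, an auxiliary subunit of voltage-gated calcium channels, had 8.30 with R1881 and 7.34 with vehicle in siCTBP1-AS #2 cells, against 9.62 with R1881 and 8.75 with vehicle in siControl cells. Its effect was -1.37 ± 0.11 (SE, adjusted p = 0.00108), and its groups did not overlap.

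Metabolic enzymes and transporters among the 15 lowest were ACSM3, a medium-chain acyl-CoA synthetase (-1.16 ± 0.16), ACSS2, which makes acetyl-CoA from acetate (-0.90 ± 0.12), ARG2, mitochondrial arginase (-0.96 ± 0.20), and the glucose transporter SLC2A12 (-1.15 ± 0.21; adjusted p = 0.0724 on the 6 VCaP arrays), all SE. Proteins of the secretory pathway were TMEM167A (-1.08 ± 0.12), YIF1B (-1.01 ± 0.13) and the glycosyltransferase B4GAT1 (-0.94 ± 0.10), all SE. The rest were the kinase TNIK (-1.05 ± 0.12), HINT3 (-1.0 ± 0.13), the poly(A) polymerase PAPOLA (-1.0 ± 0.13), the ETS factor GABPA (-0.96 ± 0.13) and NWD1 (-0.85 ± 0.10), all SE. PAPOLA, which adds poly(A) tails, had 10.51 with R1881 and 10.71 with vehicle in siCTBP1-AS #2 cells, against 11.66 with R1881 and 11.56 with vehicle in siControl cells. All of these genes fell with both treatments, which was a condition for listing them and held for all 249 called genes.

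Of the 36 lists, 5 held a gene that fell, in each case 1 gene. Besides GABPA and ARG2, whose adjusted p was 0.0794 on the 6 VCaP arrays, these were FDPS, RPL13 and ABCC4. FDPS, farnesyl diphosphate synthase, was the 1 called of 18 in cholesterol synthesis, at -0.71 ± 0.13 (SE, adjusted p = 0.0339); the list's median was -0.25 and 2 of the 18 effects were above 0. RPL13 (-0.57 ± 0.094, SE) was the 1 called of 22 ribosomal protein genes and was not called on the 6 VCaP arrays (adjusted p = 0.0657), with a median of -0.22 and 1 of 22 above 0. With siPSF in VCaP the RPL13 effect was -0.84. None of 16 fatty acid synthesis genes was called (median -0.23), none of 19 of oxidative phosphorylation (median -0.07), none of 27 splicing factors (median 0.06), none of 10 PSF and paraspeckle genes (median 0.01) and none of 17 at the CTBP1 locus or among its corepressors (median -0.03). In the last list the largest effect was that of HDAC1, 0.21 ± 0.093 (SE, adjusted p = 0.303), and CTBP2 stood at 0.00. Over all tested genes 1.80% were called and 0.956% fell, so 1 call or none does not set a list of this size apart.

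Targets of the androgen receptor were described next. Of 34 tested androgen-induced genes 1 fell, ABCC4, which exports cyclic nucleotides, at -0.71 ± 0.11 (SE, adjusted p = 0.0141). None rose, and the median was -0.13. Over all tested genes 0.956% fell and 0.847% rose, so 1 call in a list of 34 does not set it apart. The fit on the 6 VCaP arrays called 4 of the 34, against 1.35% of all tested genes. KLK3 had an effect of -0.49 ± 0.13 (SE, adjusted p = 0.104). SLC45A3, a prostate transporter, had one of -0.97 ± 0.21 (SE, adjusted p = 0.0512, and 0.0464 on the 6 VCaP arrays). ERG, which the fusion places under androgen control in VCaP, had 11.55 with R1881 and 10.07 with vehicle in siCTBP1-AS #2 cells, against 12.11 with R1881 and 10.38 with vehicle in siControl cells; its effect was -0.43 ± 0.14 (SE, adjusted p = 0.159). In VCaP cells with siPSF the effect on ERG was -1.64, and siCTBP1-AS #2 minus siPSF was 1.21 ± 0.14 (SE, adjusted p = 0.00194). None of 15 androgen-repressed genes was called.

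The response to R1881 was also set side by side, as R1881 minus vehicle within each siRNA, with 1 array at each end and therefore no test. Androgen-induced genes had a median response of 0.91 with siCTBP1-AS #2 and 1.20 with siControl. The absolute response was smaller with siCTBP1-AS #2 for 19 of 34, against 62.8% of all tested genes. Androgen-repressed genes had medians of -2.58 with siCTBP1-AS #2 and -2.57 with siControl. DNA replication genes had a median response of -1.09 with siCTBP1-AS #2 and -1.50 with siControl, and the absolute response was smaller with siCTBP1-AS #2 for 33 of 35, against 62.8% of all tested genes. CDC45, a helicase component, had a response of -1.38 with siCTBP1-AS #2 and -2.19 with siControl. In siPSF cells CDC45 had signals of 8.51 with R1881 and 10.14 with vehicle, against 7.40 with R1881 and 9.59 with vehicle in siControl cells. The median effect on the DNA replication list was 0.32 with R1881 and -0.03 with vehicle, and none of its 35 genes was called. Averaged over both treatments, the list's median effect was 0.09 with siCTBP1-AS #2 and 0.41 with siPSF, which shares the siControl arrays.

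**Figure D4:**
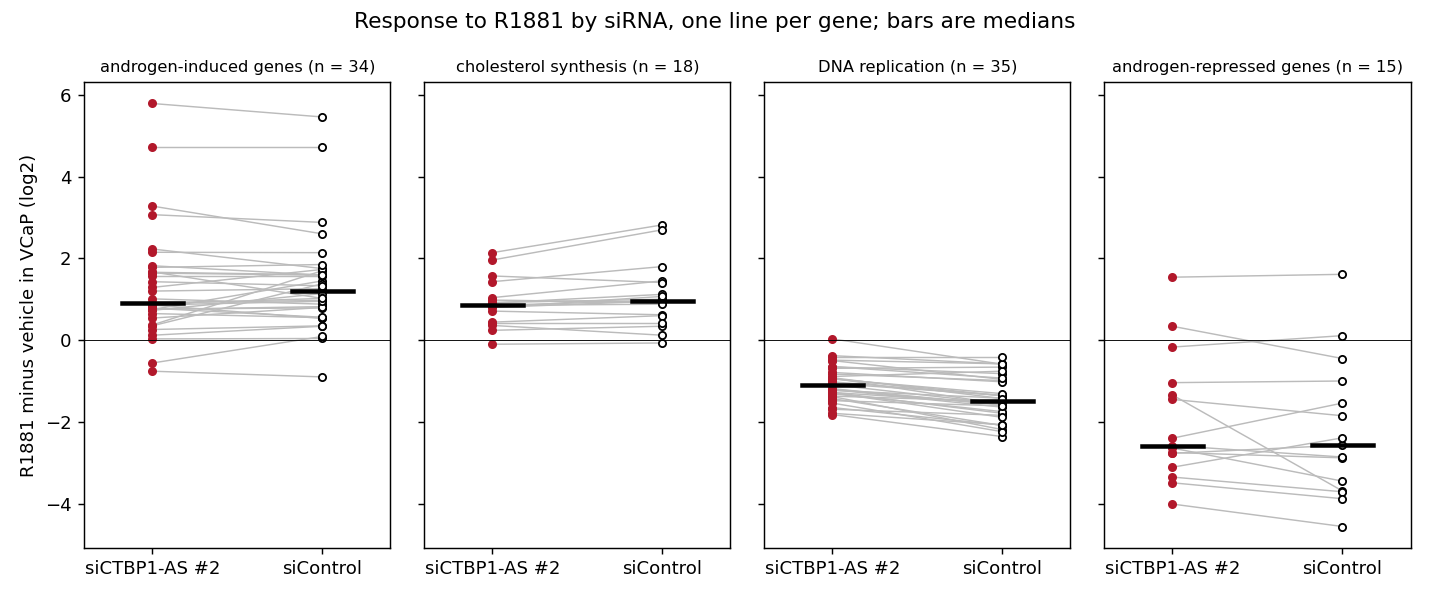
R1881 minus vehicle (log2) in VCaP for the genes of 4 lists, with siCTBP1-AS #2 left of siControl in each panel, 1 line per gene and bars at the medians. The DNA replication lines slope down to the right, with medians of -1.09 for siCTBP1-AS #2 and -1.50 for siControl, while androgen-repressed genes have medians of -2.58 for siCTBP1-AS #2 and -2.57 for siControl.

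Genes of mitosis and chromatin assembly were listed as further measures of proliferation. AURKA, a mitotic kinase, was the 1 called of 31 mitosis genes (0.52 ± 0.10, SE, adjusted p = 0.037), a call that was lost on the 6 VCaP arrays (adjusted p = 0.0945), and 29 of the 31 effects were above 0, with a median of 0.27. Of 28 replication-dependent histone genes, whose transcripts peak in S phase, 5 rose: H2BC14 (0.92 ± 0.20), H2AC17 (0.90 ± 0.14), H2AC4 (0.69 ± 0.13), H3C1 (0.68 ± 0.14) and H3C3 (0.60 ± 0.13), all SE. The siRNA arrays overlapped for all of these but H2AC17, and 2 histone genes were called in the fit on the 6 VCaP arrays. Their list had a median of 0.25. With siPSF in VCaP, against the same siControl arrays, the median was 0.49 for mitosis genes and 0.35 for histone genes. Histone genes of one type are near copies of each other, so the split between them is uncertain.

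Several genes had effects that differed between the treatments. With 1 array per siRNA and treatment these differences have no test. CCN3, a secreted matrix protein repressed by androgen, had 6.52 with R1881 and 7.86 with vehicle in siCTBP1-AS #2 cells, against 6.67 with R1881 and 10.37 with vehicle in siControl cells. The gap between the siRNAs was therefore -0.16 with R1881 and -2.51 with vehicle. PLK2, a stress-responsive kinase, had 8.31 with R1881 and 8.65 with vehicle in siCTBP1-AS #2 cells, against 6.35 with R1881 and 8.65 with vehicle in siControl cells, so that 1 siControl array stood below the other 3. ST6GAL1, a sialyltransferase, had an effect of -1.23 with R1881 and -0.18 with vehicle. Over all tested genes the median absolute difference between the effects with R1881 and vehicle was 0.19.

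The effect in VCaP was then compared with that of the same siRNA in LNCaP set 2. It differed for 1669 genes, 12.1% of those tested, with 843 higher in VCaP (6.10%) and 826 lower (5.98%). Of the 117 genes that rose in VCaP, 59 differed from set 2, and of the 132 that fell, 76 differed; these genes had been chosen on one side of the difference, so the shares are a description. The genes that fell had a median effect of -0.63 in VCaP and 0.00 in LNCaP set 2, and those that rose had 0.85 in VCaP and 0.19 in set 2. The cell line, the serum and the array set differ together and cannot be told apart.

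The interferon-stimulated genes were also high with siCTBP1-AS #2 in LNCaP set 2. Their median effect was 1.18 in VCaP and 1.65 in set 2, and 4 of the 35 differed between the lines, 1 higher and 3 lower in VCaP. Of all tested genes 12.1% differed, 6.10% higher and 5.98% lower in VCaP. IFIT1 had an effect of 2.79 in VCaP and 4.43 in set 2, a difference of -1.64 ± 0.72 (SE, adjusted p = 0.172). MX1 was the one that was higher in VCaP, with 2.98 against 0.30 in set 2, a difference of 2.67 ± 0.22 (SE, adjusted p = 0.000544). In the list of sensors, IFIH1 had 0.29 in VCaP against 2.57 in set 2, a difference of -2.28 ± 0.31 (SE, adjusted p = 0.0026).

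In the ATF4 and immediate early lists, the genes that differed from LNCaP set 2 were higher in VCaP. Over all tested genes 6.10% were higher and 5.98% lower in VCaP. Of 27 ATF4 genes 11 were higher in VCaP and none was lower, and the list's median was 0.37 in VCaP, -0.21 in set 2 and -0.82 in set 1. CHAC1 had 2.28 in VCaP against -0.10 in set 2, a difference of 2.37 ± 0.40 (SE, adjusted p = 0.00707), and SESN2 had 1.32 against -0.73, a difference of 2.05 ± 0.36 (SE, adjusted p = 0.00834). Of 29 immediate early genes 9 were higher in VCaP and none was lower, among them FOS, with 1.57 in VCaP against 0.17 in set 2. Set 1 lay closer to VCaP here, as the immediate early median was 0.35 in VCaP, 0.03 in set 2 and 0.26 in set 1. EGR1 had 1.14 in VCaP against 1.25 in set 1 (adjusted p of the difference 0.801), and JUNB 0.91 in VCaP against 1.18 in set 1 (adjusted p 0.705). VEGFA had 0.91 in VCaP against -0.87 in set 2 (difference 1.78 ± 0.23, SE, adjusted p = 0.00207). The NK-cell ligand ULBP1 had 1.22 in VCaP, where it was called, against -1.24 in set 2 (difference 2.46 ± 0.29, SE, adjusted p = 0.0016).

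At the other end, the 8 genes with the lowest differences had effects above 0 in LNCaP set 2 and were not called in VCaP. DEPTOR, an inhibitor of mTOR, had -0.43 in VCaP against 2.69 in set 2, and SERPINI1, a protease inhibitor, had -0.73 in VCaP against 2.45 in set 2. RAB27B, a regulator of secretion, had -0.40 in VCaP against 2.07 in set 2. Conversely JAG1, a Notch ligand, had 0.05 in VCaP against -2.51 in set 2, and CD276, an immune checkpoint protein, had 0.38 in VCaP against -1.79 in set 2. These 5 differences passed the test, while the VCaP effects alone did not. Against LNCaP set 1, which had a different siRNA label and R1881 dose, 231 genes differed (1.67%), with 80 higher (0.579%) and 151 lower (1.09%) in VCaP.

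**Figure D5:**
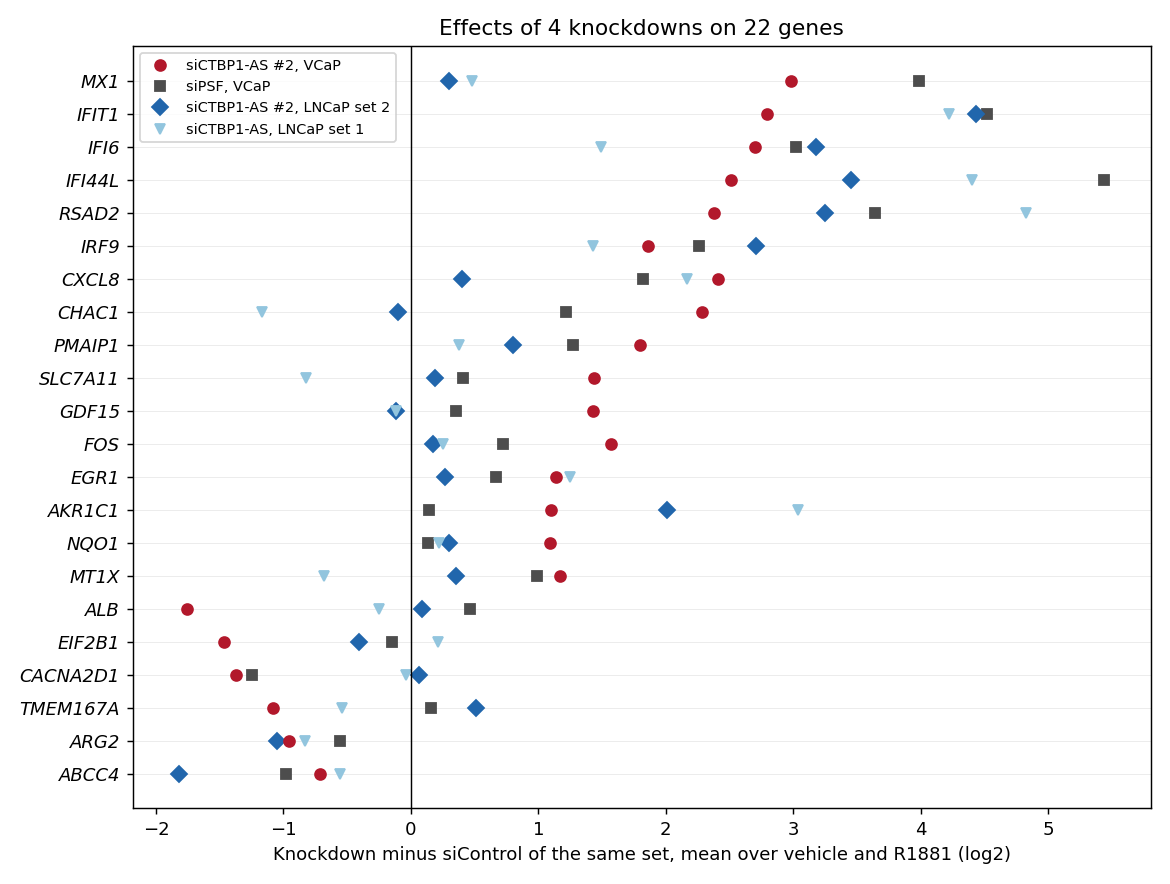
Effects of 4 knockdowns (log2, knockdown minus siControl of the same set, mean over vehicle and R1881) on 22 genes. siCTBP1-AS #2 in VCaP is the red circle. IFIT1 is high in all 4, MX1 is high in both VCaP knockdowns and near 0.30 in LNCaP set 2, and EIF2B1 is at -1.47 with siCTBP1-AS #2 in VCaP and between -0.41 and 0.21 elsewhere.

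In VCaP, siCTBP1-AS #2 was last compared with siPSF. Each shares the same siControl arrays, so the effects are given side by side and the test is of the direct difference, in which siControl drops out. It passed for 568 genes (4.11%), with 296 higher (2.14%) and 272 lower (1.97%) with siCTBP1-AS #2. Interferon-stimulated genes were lower with siCTBP1-AS #2 for 12 of 35 and higher for none, with median effects of 1.18 for siCTBP1-AS #2 and 2.49 for siPSF. IFI44L had 6.57 with R1881 and 7.51 with vehicle in siCTBP1-AS #2 cells, against 9.76 with R1881 and 10.18 with vehicle in siPSF cells, a difference of -2.93 ± 0.54 (SE, adjusted p = 0.0169). SAMD9L, an antiviral gene, differed by -1.83 ± 0.21 (SE, adjusted p = 0.00187).

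Other genes set the 2 knockdowns apart in either direction. siCTBP1-AS #2 minus siPSF was -2.22 ± 0.16 for ALB and -1.33 ± 0.097 for EIF2B1 (both SE and adjusted p = 0.000233). GDF15 was higher with siCTBP1-AS #2 by 1.08 ± 0.14 (SE, adjusted p = 0.00378) and FOS by 0.86 ± 0.16 (SE, adjusted p = 0.0166). CPNE4, a calcium-dependent membrane-binding protein, fell with siCTBP1-AS #2 (-0.74 ± 0.16, SE; adjusted p = 0.0523 on the 6 VCaP arrays) and had an effect of -2.19 with siPSF, and the direct difference was 1.45 ± 0.16 (SE, adjusted p = 0.00152). CACNA2D1 stood at -1.37 with siCTBP1-AS #2 and -1.25 with siPSF, a difference of -0.11 ± 0.11 (SE, adjusted p = 0.654). In cholesterol synthesis 6 of 18 genes were lower with siCTBP1-AS #2 than with siPSF and none was higher, FDPS by -0.76 ± 0.13 (SE, adjusted p = 0.0148).

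Markers of other cell types were included as a check of the cell line. Of basal epithelium 5 markers passed the filter on low signals, of fibroblasts 5, of leukocytes 3 and of endothelium 1, and none was called. The median level of the measured fibroblast markers was 5.17 with R1881 and 5.27 with vehicle in siCTBP1-AS #2 cells, against 5.04 with R1881 and 4.97 with vehicle in siControl cells, and that of leukocyte markers 4.42 with R1881 and 4.55 with vehicle, against 4.27 with R1881 and 4.32 with vehicle. Basal markers reached 10.13, for ITGA6. The prostate cancer markers had a list median of 11.79 with R1881 and 11.28 with vehicle in siCTBP1-AS #2 cells, against 12.11 with R1881 and 11.20 with vehicle in siControl cells. Their median effect was -0.38, 1 of 9 was above 0 and none was called in the main fit, against 1 in the fit on the 6 VCaP arrays. Luminal genes such as FOXA1 (-0.22) and EPCAM (0.04) and the neuroendocrine and mesenchymal lists had no called gene.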

How the data were processed

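The values are log2 signals that the authors made with RMA in Affymetrix Expression Console 1.1.1, per the submitters' processing notes, from 18 arrays in 4 sets. Of 33297 probe sets, 19460 had 1 gene symbol in the platform annotation, 1754 several and 12083 none listed; the brightest set stood for each of the 18417 symbols, and the dimmest 25% of genes were left out. limma 3.58.1 in R 4.3.3 fitted all 18 arrays with a term for each set, for R1881 within each set and for each knockdown in each set (13 coefficients, 5 residual degrees of freedom), with Benjamini-Hochberg adjustment over 13812 genes. The VCaP effect is the mean of siCTBP1-AS #2 minus siControl over both treatments, which pairs the arrays by treatment. The fit was tested on simulated data.

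Members and gene lists were chosen with earlier results of these data known. Genes named are the 15 highest and 15 lowest called, the called members of each list (at most 6, or the 2 largest uncalled where none was called), CTBP1, SFPQ, KLK3, ERG, CTBP2 and SMAD3, the 6 highest and 6 lowest differences between treatments among brighter genes, the 8 highest and 8 lowest differences from LNCaP set 2 and the 6 highest and 6 lowest from siPSF; further list members illustrate counts. Alternatives were fits on VCaP arrays alone, on LNCaP set 2 with VCaP, without the blocks, other filters, probe set means, quantile normalisation, median centring, a trended robust prior and leaving out each VCaP array.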

Additional observations from a re-analysis of the deposited data

Results flagged for a closer look

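The effect of siCTBP1-AS #2 differed between VCaP and LNCaP set 2 for 1669 genes, and several of the genes described above are among them. Each value here is the VCaP effect minus the LNCaP set 2 effect on the log2 scale, with an adjusted p under 0.05. Higher in VCaP were MX1 (2.67), CHAC1 (2.37), CXCL8 (2.00) and RGS2 (1.33). Lower in VCaP were ACSM3 (-2.02), TNIK (-1.88), ALB (-1.85), B4GAT1 (-1.65), TMEM167A (-1.60), CACNA2D1 (-1.42), GABPA (-1.38), HINT3 (-1.33), YIF1B (-1.29), EIF2B1 (-1.07) and ACSS2 (-0.76). For ALB, CACNA2D1 and MX1 the LNCaP set 2 effect lay between 0.06 and 0.30, whereas ACSM3, TNIK, B4GAT1 and TMEM167A had effects of 0.86, 0.83, 0.71 and 0.51 there, opposite in sign to VCaP. For CXCL8 the LNCaP set 1 effect was 2.17, against 2.41 in VCaP (adjusted p of the difference 0.608). These genes had been chosen for their VCaP effect.

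Among the 12 genes named for the largest differences between the treatments, 7 had siRNA effects of opposite sign with R1881 and with vehicle, and this difference was not tested. Over all tested genes 59.4% had the same sign in both treatments. The 12 were chosen on this very difference, which favours opposite signs, so the 2 shares cannot be compared. The effect with R1881 minus that with vehicle was 1.58 for the small nucleolar RNA SNORA14A, 1.27 for FERMT1, 1.26 for A1CF and 1.11 for the bicarbonate transporter SLC4A4. It was -1.12 for RAP1GAP, -1.05 for ZNF473CR and -0.81 for ZNRF2. FERMT1, an integrin activator, had 7.55 with R1881 and 8.03 with vehicle in siCTBP1-AS #2 cells, against 7.08 with R1881 and 8.84 with vehicle in siControl cells, so that the range between the treatments was narrower with siCTBP1-AS #2.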

How the results depend on the processing

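The 249 calls rest on the pooled spread and on the pairing of arrays by treatment. In a fit without the replicate block, the LNCaP sets shared a common level and R1881 term, while VCaP kept its own. By construction, differences between the LNCaP sets in scaling and hormone response then enter the residual and the LNCaP effects. That fit called 1 gene for siCTBP1-AS #2 in VCaP, and 4 differed from LNCaP set 1. From LNCaP set 2, 0 differed (1331 at an unadjusted p under 0.05), against 909 in the fit on LNCaP set 2 with VCaP. From siPSF, 0 differed (205 at an unadjusted p under 0.05), against 293 in the fit on LNCaP set 2 with VCaP. The VCaP count was 54 on the 4 compared arrays and 121 on LNCaP set 2 with VCaP, both with fewer arrays. Quantile normalisation gave 353 differences from set 1, against 231, and the cause was not tested. Leaving out 1 VCaP array at a time gave 14 to 153 genes for the VCaP effect, 643 to 1405 against LNCaP set 2, 46 to 115 against set 1 and 62 to 545 against siPSF, where the lone array left in a cell is assumed to vary like the other groups. Other filters, probe set means, quantile normalisation, median centring and a trended robust prior gave 225 to 370 genes for the VCaP effect, and the share that rose was 35.6% when the dimmer 50% were left out, 55.8% after quantile normalisation and 38.9% with the trended prior, against 47.0%. Of 72 named called genes, 61 were still called on the 6 VCaP arrays, and far fewer when 1 of the 4 compared arrays was left out. No alternative reversed the sign of a called gene, but many could not. Fits that changed only the filter, the prior, the blocks or the arrays outside the 4 compared kept the same estimate. All 249 called genes also had the same sign in both treatments from the start.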
